A study of Mus musculus with 2 samples.

Results

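Scavenger and lectin receptors are surface proteins with which macrophages bind and take up sugars, modified lipoproteins, haemoglobin complexes, hyaluronan and antibody-coated particles. The members described here are 10 genes, found by their symbols among the 32287 features of the deposited matrices, and all 10 were present: Mrc1, Stab1, Cd163, Lyve1, Cd209f, Cd209g, Clec10a, Clec4n, Fcgr2b and Msr1. They are described in border macrophage-like, microglia-like, endothelial-like and fibroblast-like cells, with monocyte-like cells as a further myeloid class.

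The samples were 2 droplet single-cell RNA libraries of mouse leptomeninges, the thin inner membranes of the brain, called R1 and R2. The tissue was peeled off the cerebral hemispheres of male and female mice aged 3 months that carry the Pdgfra-H2BGFP reporter allele, in which a nuclear green fluorescent protein marks cells with an active Pdgfra gene. No other genotype, treatment or time is labelled, so both libraries form 1 group. Whether R1 and R2 were prepared from different animals, and whether animals were pooled, is not labelled. Each p-value measures how far differences between groups of cells vary between these 2 libraries, a spread that may be technical.

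Border macrophages are the resident macrophages of the meninges and of the spaces around brain vessels. They stand at the contact between blood vessels, cerebrospinal fluid and fibroblasts, and they are known for strong uptake of soluble material. Microglia are the macrophages of the brain tissue itself. Mannose receptor and other endocytic receptors are commonly used to tell border macrophages from microglia.

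The kept cells numbered 2984 in R1 and 3037 in R2, with medians of 1642.5 and 1249 UMIs per cell, where a UMI is a molecular tag that counts 1 captured RNA molecule. Cells were grouped without using any of the 10 genes, and classes were named from other marker genes. The border macrophage-like class held 541 and 682 cells, the microglia-like class 189 and 101, the monocyte-like class 72 and 79, the endothelial-like class 327 and 315, and the fibroblast-like cells as a whole 1393 and 1551. The 7 border macrophage markers (Pf4, Cbr2, F13a1, Ms4a7, Folr2, Dab2 and Ccl24) were all detected in the border macrophage-like class and summed there to 9474 and 10310 CPM (counts per 1000000 UMIs of the class and library). The same markers summed to 65.5 and 173 CPM in microglia-like cells, 339 and 332 CPM in monocyte-like cells, 157 and 186 CPM in endothelial-like cells and 293 and 259 CPM in fibroblast-like cells. The 8 microglia markers summed to 19885 and 20861 CPM in microglia-like cells. Among the 10 leading genes of the monocyte-like cluster were the monocyte markers Ccr2 and Plac8. Mpo, Ctsg, H2-Eb1, H2-Ab1 and Mgl2, which are not in the monocyte marker list, were also among them. This class may thus hold more than 1 cell type, which was not tested. The libraries shared 93 barcode sequences, and 79 and 78 of the kept cells carried one. Without them the endothelial-like class held 260 and 248 cells in place of 327 and 315. The border macrophage-like class held 537 and 680 in place of 541 and 682. Most shared barcodes thus lay in the endothelial-like class, whose R1 and R2 values may not be independent, which was not tested. Scrublet marked under 0.2% of the cells as doublets, so doublets were in effect not removed. The doublets that remain and free RNA in the droplets can both place a macrophage molecule in another class, and their part in the results was not tested.

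Each of the 10 genes was highest in the border macrophage-like class among all 18 classes and clusters, in both libraries. Compared with microglia-like cells, all 10 passed the test as higher, where 10.5% of the 10213 genes tested were higher. Against endothelial-like cells all 10 were also higher, with 21.2% of all genes higher. Against the mean of the fibroblast-like classes all 10 were higher again, with 30.9% of all genes higher. The test was edgeR's quasi-likelihood test on UMIs summed per library and class, with library as a block, and a gene passed at a Benjamini-Hochberg adjusted p under 0.05. Among members with more than 3 UMIs in the lower class, the differences from endothelial-like cells ran from 4.79 ± 0.22 for Stab1 to 7.78 ± 0.31 for Cd209f (SE, log2), and those from fibroblast-like cells from 6.25 ± 0.17 for Clec10a to 8.30 ± 0.20 for Cd209f. The classes were built from the same cells, so these differences describe how the receptors go with the other genes of each class.

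**Figure D1:**
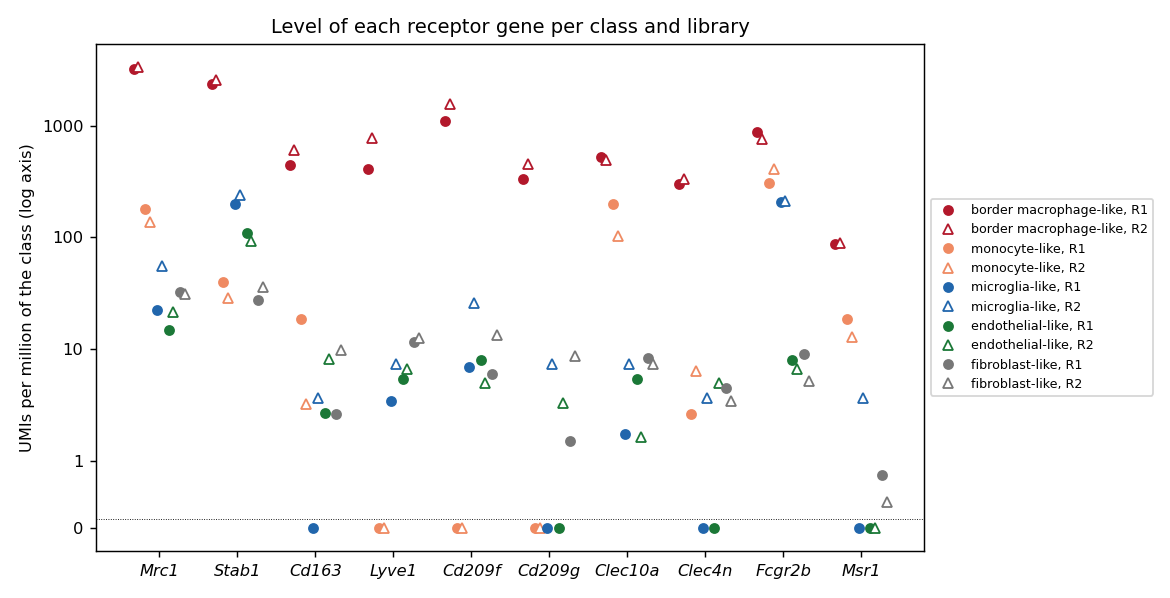
Level of each of the 10 receptor genes per class, in CPM on a log axis, with 1 point per library (R1 and R2) and levels of 0 under the dotted line. The border macrophage-like points lie above those of the other 4 classes drawn for every gene, and Stab1 and Fcgr2b are the members whose microglia-like points lie clearly above the fibroblast-like ones.

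Among the lectins, Mrc1 (chr2:14229392-14332057, plus strand; all positions are mm10) encodes the mannose receptor CD206, which binds and internalises mannose-bearing glycoproteins. Its level was 3213 and 3355 CPM in border macrophage-like cells of R1 and R2, 22.4 and 55.1 CPM in microglia-like cells, 179 and 137 CPM in monocyte-like cells, 14.7 and 21.4 CPM in endothelial-like cells and 32.6 and 31.3 CPM in fibroblast-like cells. Every other class lay far under the border macrophage-like class in both libraries, and the monocyte-like class came next in mean level, without separating from the mural-like class described below. The fitted difference between border macrophage-like and microglia-like cells was 6.65 ± 0.26 on the log2 scale (SE, n = 2 libraries; edgeR adjusted p = 7.71e-46). Between border macrophage-like and monocyte-like cells it was 4.13 ± 0.21. With every cell thinned to 500 UMIs, so that depths match, 61.6% and 61.7% of border macrophage-like cells had an Mrc1 UMI, against 1.01% and 2.06% of fibroblast-like cells, a type not known for mannose receptor. The median depth before thinning was 1430 and 1199 UMIs in border macrophage-like cells and 1480 and 1065 UMIs in fibroblast-like cells. Mural-like cells, the contractile cells of vessel walls, gave 37.3 and 208 CPM of Mrc1, values that differ widely between the libraries. The gene's span also holds the microRNA gene Mir511 on the same strand.

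Clec10a (chr11:70156197-70170834, plus strand) encodes MGL1, a lectin that binds galactose and N-acetylgalactosamine. It stood at 524 and 492 CPM in border macrophage-like cells, against 200 and 102 CPM in monocyte-like cells, and between 1.64 and 8.25 CPM in microglia-like, endothelial-like and fibroblast-like cells. The monocyte-like level lay under the border macrophage-like level and above every other class in both libraries. The fitted difference between border macrophage-like and monocyte-like cells was 1.503 ± 0.170 on the log2 scale (SE; edgeR adjusted p = 4.83e-13). All 10 members were higher in border macrophage-like than in monocyte-like cells, with 10.3% of all genes higher, in a comparison added after seeing the data. Clec10a shares 3.25% of its transcript windows of 90 bases with its neighbour in sequence Mgl2, so some reads of these paralogs could not be assigned to 1 of them.

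Clec4n (chr6:123229843-123247021, plus strand) encodes dectin-2, which binds mannan of fungal walls. Its level was 298 and 333 CPM in border macrophage-like cells. In monocyte-like, microglia-like, endothelial-like and fibroblast-like cells it was at most 6.38 CPM, the value of monocyte-like cells in R2, and microglia-like cells held 1 UMI of it in all. The pooled ratio of border macrophage-like to microglia-like cells was 269.5, with a 95% counting interval of 48.3 to 10657. The interval is wide because the microglia-like class holds so few molecules, and it covers counting error only.

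Cd209f (chr8:4102787-4105835, minus strand) and Cd209g (chr8:4134098-4137707, plus strand) belong to the mouse family of DC-SIGN-like lectins, whose relatives bind mannose and fucose sugars. Their levels were 1109 and 1563 CPM for Cd209f and 335 and 459 CPM for Cd209g in border macrophage-like cells. In monocyte-like cells neither gene had a UMI in either library. In microglia-like cells Cd209f was at 6.90 and 25.7 CPM and Cd209g at 0 and 7.35 CPM. Both genes thus separated the border macrophage-like class from the other myeloid classes in every library. Against monocyte-like cells, with a floor of 3 counts over both libraries, the pooled level was at least 311-fold higher for Cd209f and at least 92.4-fold higher for Cd209g. Against microglia-like cells the fitted difference of Cd209f was 6.63 ± 0.30 on the log2 scale (SE; edgeR adjusted p = 1.46e-39). For Cd209g, with 2 UMIs in microglia-like cells, the pooled ratio was 170.1, with a 95% counting interval of 47.0 to 1406.5.

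The promoters of this pair are shown because the genes lie 28262 bases apart on opposite strands, were found in the same cells, as described further on, and have nearly the same sequence before their starts. The sequences run 5′ to 3′ along each gene, from 250 bases before to 50 bases after the start that RefSeq gives on GRCm38.p6 (mm10), and capitals mark the longest stretch that both share without a mismatch, 180 bases. Cd209f is chr8:4105715-4106014 on the minus strand and Cd209g is chr8:4134486-4134785 on the plus strand. Both gene spans given above begin before these RefSeq starts. The Cd209g window therefore lies wholly inside the span of its gene, and the Cd209f window lies partly inside. Distances below are counted from the RefSeq starts.
Cd209f: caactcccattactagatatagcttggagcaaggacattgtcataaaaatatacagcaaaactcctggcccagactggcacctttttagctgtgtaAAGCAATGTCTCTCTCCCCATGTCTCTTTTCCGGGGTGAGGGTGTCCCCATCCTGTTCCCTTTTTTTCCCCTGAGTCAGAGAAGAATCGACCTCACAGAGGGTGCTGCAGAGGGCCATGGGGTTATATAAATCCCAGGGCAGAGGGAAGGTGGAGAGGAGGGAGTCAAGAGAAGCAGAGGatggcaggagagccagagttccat
Cd209g: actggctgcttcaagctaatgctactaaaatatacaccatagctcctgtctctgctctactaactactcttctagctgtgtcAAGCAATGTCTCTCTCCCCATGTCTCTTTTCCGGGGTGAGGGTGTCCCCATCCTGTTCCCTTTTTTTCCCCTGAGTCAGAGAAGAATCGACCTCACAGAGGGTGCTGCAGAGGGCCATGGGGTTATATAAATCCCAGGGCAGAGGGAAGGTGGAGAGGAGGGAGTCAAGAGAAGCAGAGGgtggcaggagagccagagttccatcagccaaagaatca
The stretch covers bases 97 to 276 of the Cd209f window and 83 to 262 of the Cd209g window. Aligned over 286 bases, the windows matched at 238 bases, or 83.2%. The AP-1 motif TGAGTCA was found once in each window, 83 bases before the Cd209f start and 97 bases before the Cd209g start, and it occurs on either strand in 5.20% of the 32841 promoters of the same length. The TATA motif TATAAA was found once in each, 29 and 43 bases before the starts, and occurs on either strand in 13.6% of promoters. The core motif of the myeloid factor PU.1, GAGGAA, had no match in either window and occurs on either strand in 28.3% of promoters. It had 3 matches in the Mrc1 promoter and 1 in that of Stab1. RefSeq promoters were matched for 6 of the 10 members: Mrc1, Stab1, Cd163, Cd209f, Cd209g and Fcgr2b. A match of letters is a description and not a site of binding. The transcripts of the pair also share 499 windows of 90 bases, which are 21.5% of those of Cd209f and 12.2% of those of Cd209g. Within the last 500 bases, where these 3′ libraries are mostly read, 29.1% of the Cd209f windows are shared and 0 of the 652 Cd209g windows. Reads from shared stretches could not be assigned to 1 gene of the pair, so the values of both carry an uncertainty whose size was not measured.

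Among the scavenger receptors proper, Stab1 (chr14:31139013-31168641, minus strand) encodes stabilin-1, which clears modified lipoproteins and matrix fragments. It stood at 2369 and 2573 CPM in border macrophage-like cells. It was also found outside that class, at 200.1 and 239 CPM in microglia-like cells and 109 and 93.6 CPM in endothelial-like cells, against 27.4 and 36.1 CPM in fibroblast-like cells. The microglia-like and endothelial-like libraries all lay above the fibroblast-like ones. The difference between microglia-like and fibroblast-like cells was 3.22 ± 0.22 on the log2 scale (SE; edgeR adjusted p = 4.87e-26), and Stab1 and Fcgr2b were the members called in that comparison, with 25.1% of all genes higher. Between endothelial-like and fibroblast-like cells it was 2.003 ± 0.238 (SE; edgeR adjusted p = 1.45e-12), and Stab1 was the 1 member called there, with 24.3% of all genes higher. These shares of the members, 2 and 1 of 10, are no larger than the shares of all genes.

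Within the endothelial-like class, Stab1 was 174 and 143 CPM in arterial cells and 126 and 118 CPM in capillary or other cells, against 27.2 and 26.0 CPM in venous cells. The venous values lay at the fibroblast-like level, while the arterial and capillary values lay above it in both libraries. All members together had only 6 and 7 UMIs in venous cells. The endothelial-like class also holds barcodes found in both libraries, and their number in each of these groups was not measured. The closeness of R1 and R2 here may thus not be that of independent libraries. At 500 UMIs per cell, 11.8% and 7.41% of arterial cells and 7.33% and 7.47% of capillary or other cells had a Stab1 UMI, against 0 of 60 and 1 of 60 venous cells. By the floor of 3 counts, 0 of 60 cells allows a share of up to 5%, and the exact 95% interval reaches 5.96%. No test was run between these endothelial groups. The 7 border macrophage markers were lower in endothelial-like than in fibroblast-like cells, at 157 and 186 against 293 and 259 CPM, whereas Stab1 was higher there. Stab1 made up 71.3% and 62.0% of all member UMIs in endothelial-like cells, against 24.5% and 23.4% in border macrophage-like cells. In fibroblast-like cells it made up 26.3% and 28.2%. The part of free RNA and doublets in the Stab1 values of these classes was not tested. The gene's span overlaps Nt5dc2 on the other strand.

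**Figure D2:**
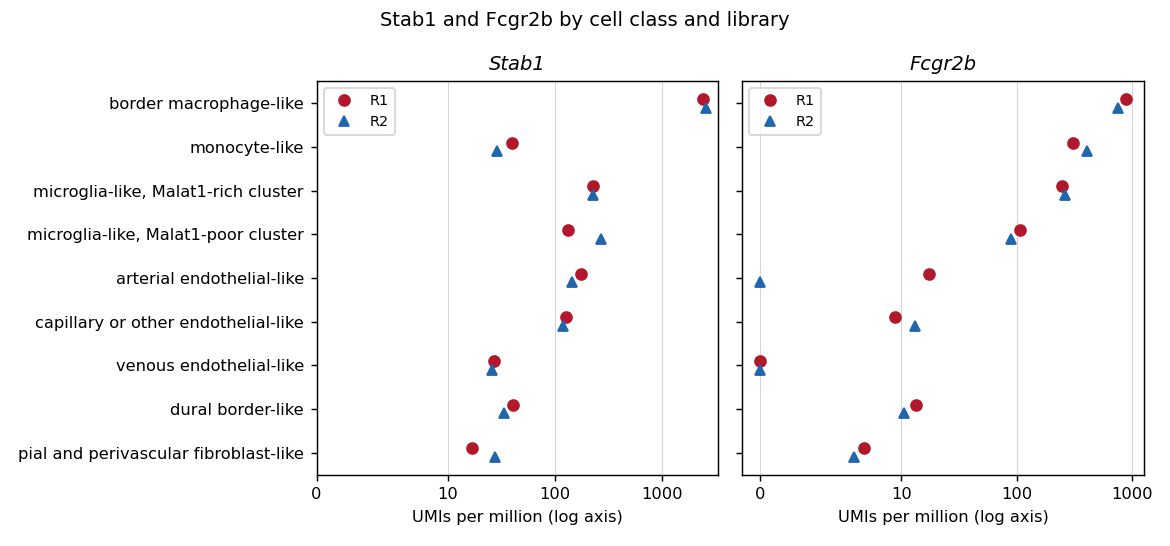
Levels of Stab1 and Fcgr2b in CPM on a log axis, by class and subclass, with 1 point per library and a level of 0 drawn at the mark 0. Stab1 lies at 118 CPM or more in arterial and capillary or other endothelial-like cells but at 27.2 and 26.0 CPM in venous cells, and Fcgr2b lies at 89.2 CPM or more in both microglia-like clusters.

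Msr1 (chr8:39581685-39642673, minus strand) encodes scavenger receptor A, which takes up acetylated lipoproteins. Its level was close in both libraries, 86.7 and 88.9 CPM in border macrophage-like cells, against 18.4 and 12.8 CPM in monocyte-like cells. In microglia-like cells it had 1 UMI, in fibroblast-like cells 3 in the classes fitted, and in endothelial-like cells none. The border macrophage-like and monocyte-like values did not overlap. The fitted difference between them was 2.23 ± 0.41 on the log2 scale (SE; edgeR adjusted p = 3.51e-06). Against endothelial-like cells the pooled level was at least 39.8-fold higher, with a floor of 3 counts over both libraries. Against microglia-like cells the pooled ratio was 74.9, with a 95% counting interval of 13.3 to 2968, and against fibroblast-like cells it was 129, with an interval of 43.6 to 629. At 500 UMIs per cell, 4.99% and 4.11% of border macrophage-like cells had an Msr1 UMI, against 0 of 1393 and 0 of 1551 fibroblast-like cells, which allow shares of up to 0.215% and 0.193%.

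Cd163 (chr6:124304656-124330527, plus strand) encodes the receptor that takes up complexes of haemoglobin and haptoglobin. It was 448 and 609 CPM in border macrophage-like cells, against 0 and 3.68 CPM in microglia-like cells, 18.4 and 3.19 CPM in monocyte-like cells, 2.67 and 8.21 CPM in endothelial-like cells and 2.63 and 9.87 CPM in fibroblast-like cells. Every other class lay far below the border macrophage-like values. Microglia-like cells held 1 UMI in all, and the pooled ratio was 454, with a 95% counting interval of 81.3 to 17927. Against monocyte-like cells the fitted difference was 5.24 ± 0.31 on the log2 scale (SE; edgeR adjusted p = 5.29e-31).

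Lyve1 (chr7:110850607-110863239, minus strand) encodes a hyaluronan receptor that is also a marker of lymphatic vessels. It was 408 and 777 CPM in border macrophage-like cells, so that the libraries differed more than for most members. In microglia-like cells it was 3.45 and 7.35 CPM, in endothelial-like cells 5.34 and 6.57 CPM and in fibroblast-like cells 11.6 and 12.4 CPM, and monocyte-like cells had none. The 2 border macrophage-like values lay far above all of these. The fitted difference from microglia-like cells was 6.82 ± 0.31 on the log2 scale (SE; edgeR adjusted p = 7.996e-40), and against monocyte-like cells the pooled level was at least 139-fold higher. Of 6 features that mark lymphatic endothelium, 3 and 2 were detected in the endothelial-like class, where they summed to 76.0 and 47.6 CPM. Reln was at 0 in both libraries, and Prox1 and Mmrn1 were at 0 in R2.

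Fcgr2b (chr1:170958617-170976547, minus strand) encodes the inhibitory receptor for immunoglobulin G, which dampens activating Fc receptors. Of the 10 members it had the smallest fitted differences from microglia-like and from monocyte-like cells. Its level was 879.6 and 760.3 CPM in border macrophage-like cells, 308 and 409 CPM in monocyte-like cells, 209 and 213 CPM in microglia-like cells, 8.0 and 6.57 CPM in endothelial-like cells and 9.0 and 5.15 CPM in fibroblast-like cells. The 3 myeloid classes kept the same order in both libraries with no overlap, and all 3 lay above the endothelial-like and fibroblast-like values. The fitted difference was 2.03 ± 0.20 between border macrophage-like and microglia-like cells (SE, log2; edgeR adjusted p = 6.71e-16), and 0.97 ± 0.19 between border macrophage-like and monocyte-like cells (edgeR adjusted p = 1.83e-05). Between microglia-like and fibroblast-like cells it was 5.42 ± 0.29 (edgeR adjusted p = 3.12e-35). Before thinning, 52.8% and 49.4% of monocyte-like cells had an Fcgr2b UMI, against 54.2% and 47.8% of border macrophage-like cells, but the monocyte-like cells were deeper, with medians of 3269 and 2244 UMIs. At 500 UMIs per cell the shares were 25.1% and 22.0% in border macrophage-like cells, against 13.9% and 16.5% in monocyte-like cells and 9.52% and 4.95% in microglia-like cells. Shares in fibroblast-like cells were 0.287% and 0.129%. Gm38204 overlaps Fcgr2b on the other strand.

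The microglia-like class itself held a Malat1-rich and a Malat1-poor cluster, where Malat1 is an RNA that stays in the nucleus. Fcgr2b was 247 and 263.5 CPM in the rich cluster, against 108 and 89.2 CPM in the poor one. Stab1 was 225 and 227 CPM in the rich cluster, against 133 and 267.5 CPM in the poor one, so the libraries of the poor cluster stood on both sides of the rich one. Mrc1 was 19.0 and 10.3 CPM in the rich cluster, against 31.7 and 166 CPM in the poor one. The rich cluster was deeper, with medians of 5083 and 4916 UMIs, against 1094 and 1031 UMIs in the poor one. Microglia-like cells with at least 1% Malat1 had a median mitochondrial share of 2.21% and 1.996%, against 6.18% and 4.55% in those with less. The part of depth and RNA quality in these differences was not tested. Cd209f in microglia-like cells had 11 UMIs in all, and its difference from fibroblast-like cells was 1.67 ± 0.73 on the log2 scale and missed the threshold (edgeR adjusted p = 0.052). The microglia-like cells of R2 had more of both Mrc1 and the border macrophage markers than those of R1, and erythroid markers summed to 30241 and 1728 CPM in R1 and R2 microglia-like cells. The part of neither in these values was tested.

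Other genes of the same kinds were described from lists, with border macrophage-like set against microglia-like cells, where 10.5% of all genes were higher, 9.84% were lower and the median difference over all genes was 0.05 on the log2 scale. The 10 members had a median of 6.74. Of 9 other scavenger receptors tested, 2 were higher and 2 were lower, with a median of 0.32. Cd36, a receptor for fatty acids and oxidised lipoproteins, was 209.6 and 223 CPM in border macrophage-like cells and had no UMI in microglia-like cells, at least 61.5-fold higher. Colec12, a membrane collectin, was 3.15 ± 0.30 higher (SE, log2), whereas Lrp1, a large endocytic receptor, was lower at −1.51 ± 0.20, and Scarb2, a lysosomal membrane protein, at −0.51 ± 0.19. The scavenger receptors therefore did not move 1 way as a group.

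Of 17 other C-type lectins, 9 were higher and 1 was lower, with a median of 1.41, or 0.82 with the genes without a microglia-like UMI set at their bound. Cd209a, another DC-SIGN-like lectin, was 205 and 209.5 CPM in border macrophage-like cells, Cd209b, the SIGNR1 lectin of the same family, 125 and 72.5 CPM, and Cd93 70.1 and 68.5 CPM. None of these had a microglia-like UMI, and their levels were at least 58.9-fold, 27.7-fold and 19.7-fold higher. Clec5a, an activating lectin of myeloid cells, was lower at −1.74 ± 0.27 (SE, log2). Cd209a and Cd209b were named for their large fold changes, so their sharing the direction of Cd209f and Cd209g is no separate result. Cd209c, Cd209d and Cd209e of the same list were not named.

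Of 6 other Fc receptor genes, 2 were higher and none was lower, with a median of 0.09. Fcgrt, the neonatal Fc receptor that recycles immunoglobulin G, was 753 and 773 CPM in border macrophage-like cells, against 93.1 and 132 CPM in microglia-like cells, and Fcer1g, the signalling chain of the activating receptors, was 0.62 ± 0.17 higher (SE, log2; edgeR adjusted p = 0.00358). Of 10 genes for the uptake of dead cells, receptors and bridging ligands together, 2 were higher and 4 lower, with a median of −0.58. Timd4, which binds phosphatidylserine, was at least 19.3-fold higher, and Gas6, the bridging ligand of the Mertk family, 2.61 ± 0.20 higher (SE, log2), while Itgb5, Mertk and Itgav were lower at −2.23 ± 0.19, −1.72 ± 0.16 and −1.48 ± 0.28.

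Of 10 genes of haem and iron handling, 6 were higher and 1 was lower, with a median of 1.58. Blvrb and Blvra, the biliverdin reductases, were 3.26 ± 0.23 and 1.89 ± 0.26 higher, and Hmox1, haem oxygenase, 2.23 ± 0.24 higher (SE, log2), while the iron transporter Slc11a1 was lower at −1.01 ± 0.24. Of 6 MHC class II genes, which present peptide to T cells, 4 were higher and 1 was lower, with a median of 0.73. Cd74, H2-Aa and H2-Ab1 were 1.69 ± 0.21, 1.67 ± 0.28 and 0.75 ± 0.28 higher, and H2-DMa was lower at −1.89 ± 0.20. In border macrophage-like against monocyte-like cells, all 6 MHC class II genes were lower, with 11.8% of all genes lower.

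Set against the fibroblast-like classes, where 30.9% of all genes were higher, 28.3% were lower and the median over all genes was −0.01, the members had a median of 7.10 on the log2 scale. All 6 other Fc receptor genes were higher, with a median of 6.84, and Fcgr1, the high-affinity immunoglobulin G receptor, Fcgr3, a low-affinity one, and Fcrls were 8.03 ± 0.26, 7.67 ± 0.21 and 7.10 ± 0.17 higher (SE). Of 17 C-type lectins 12 were higher and 2 lower, with a median of 3.67. Clec4a3 and Clec4a1, lectins related to dendritic cell immunoreceptor, and Mgl2, the paralog of Clec10a, were 8.28 ± 0.30, 8.19 ± 0.37 and 7.93 ± 0.32 higher, and Mrc2, a collagen receptor of the mannose receptor family, and Thbd, thrombomodulin, were lower at −3.03 ± 0.19 and −2.90 ± 0.19. Of 9 scavenger receptors 5 were higher and 2 lower, with a median of 0.37: Cd68 and Cd36 were 6.60 ± 0.19 and 6.58 ± 0.25 higher, while Scara3 and Lrp1 were lower at −3.16 ± 0.21 and −1.84 ± 0.16. Colec12 passed as 0.51 ± 0.15 higher over the log-scale mean of the fibroblast-like classes, although its plain mean level was 219.7 and 235 CPM in border macrophage-like cells, against 329.7 and 315 CPM in fibroblast-like cells. Of 10 genes for the uptake of dead cells 7 were higher and 3 lower, with a median of 2.25. Timd4 was at 63.6 and 71.8 CPM in border macrophage-like cells with 3 UMIs in fibroblast-like cells, Cd300a and Mertk were 5.36 ± 0.23 and 3.69 ± 0.22 higher, and Itgav and Axl were lower at −1.15 ± 0.21 and −1.001 ± 0.275. Of 10 haem and iron genes 8 were higher, with a median of 2.72, and Slc40a1, the iron exporter, Slc11a1 and Hmox1 were 6.11 ± 0.25, 6.01 ± 0.37 and 4.497 ± 0.193 higher. All 6 MHC class II genes were higher, with a median of 1.64, and Cd74, H2-Ab1 and H2-DMa were 2.09 ± 0.16, 1.74 ± 0.22 and 1.67 ± 0.25 higher over the log-scale mean of those classes. Their pooled levels differed less, with ratios of border macrophage-like to fibroblast-like cells of 1.43, 1.41 and 1.42, and H2-Ab1 stood at 136 and 58.0 CPM in border macrophage-like cells, against 38.9 and 60.1 CPM in fibroblast-like cells.

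The 5 genes outside the lists and markers whose level over classes was most like that of the members were Snx2, Fpr1, Tlr8, Aoah and Snx9. Their Pearson correlations with the mean of the standardised members were 0.93, 0.93, 0.92, 0.91 and 0.91 over 18 points, which are 9 classes in each of 2 libraries and so share libraries and cells. Snx2, a sorting nexin, was 539 and 665 CPM in border macrophage-like cells, against 79.3 and 107 CPM in microglia-like cells. Aoah, an enzyme that inactivates lipopolysaccharide, was 106 and 111 CPM in border macrophage-like cells, against 1.72 and 3.68 CPM in microglia-like cells. Fpr1, a formyl peptide receptor, stood at 23.13 and 25.04 CPM in border macrophage-like cells and Tlr8, a receptor for single-stranded RNA, at 40.5 and 35.6 CPM, and neither had a UMI in microglia-like cells. The correlation of each member with the same mean, which includes it, ran from 0.70 for Fcgr2b to 0.97 for Mrc1.

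At 500 UMIs per cell, border macrophage-like cells had a median of 2 members with a UMI in both libraries. They had a mean of 2.36 and 2.52 members, and 44.4% and 47.9% of cells had at least 3. Only 12.8% and 11% had none, against 83.6% and 85.1% of microglia-like cells, 72.2% and 74.7% of monocyte-like cells, 91.7% and 91.1% of endothelial-like cells and 96.6% and 94.1% of fibroblast-like cells. Member UMIs made up 0.967% and 1.10% of all UMIs in border macrophage-like cells, against 0.0104% and 0.0128% in fibroblast-like cells.

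Within the border macrophage-like class, 147 and 165 cells drew at least 1% of their UMIs from Malat1 and 394 and 517 cells less. The Malat1-rich cells were far deeper, with medians of 5453 and 5007 UMIs, against 1175 and 998 UMIs in Malat1-poor cells. Of the 10 members 8 were higher in Malat1-rich than in Malat1-poor cells, with 13.2% of all 10749 genes tested higher. Stab1 was 3113 and 3388 CPM in Malat1-rich cells, against 1283 and 1501 CPM in Malat1-poor cells, a fitted difference of 1.07 ± 0.17 on the log2 scale (SE; edgeR adjusted p = 3.89e-07). Fcgr2b was 1105 and 999.9 CPM in Malat1-rich cells, against 551 and 445 CPM in Malat1-poor cells, a difference of 0.92 ± 0.18. Clec10a differed by 0.88 ± 0.13, Msr1 by 0.80 ± 0.26, Lyve1 by 0.74 ± 0.12, Mrc1 by 0.64 ± 0.17 and Cd163 by 0.59 ± 0.13. For these 7 genes the Malat1-rich level lay above the Malat1-poor level in both libraries.

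Clec4n and Cd209f did not pass, although the lectins Mrc1 and Clec10a did, and Cd209g passed with uneven values. Clec4n was 326 and 362 CPM in Malat1-rich cells, against 256 and 296 CPM in Malat1-poor cells, a difference of 0.16 ± 0.14 (SE, log2; edgeR adjusted p = 0.44). Cd209f was 1083 and 1985 CPM in Malat1-rich cells, against 1147 and 1010 CPM in Malat1-poor cells, so that the groups stood in opposite order in R1 and R2, and the difference of 0.28 ± 0.18 missed the threshold (edgeR adjusted p = 0.274). Cd209g passed at 0.44 ± 0.14 (edgeR adjusted p = 0.0152), but its values without scaling were 0.18 in R1 and 0.95 in R2, and with no library block its adjusted p was 0.1495. The median share of mitochondrial UMIs was 2.73% and 2.25% in Malat1-rich cells, against 6.01% and 5.78% in Malat1-poor cells. Nuclear RNA, depth and mitochondrial share moved together across this split, and their parts in these differences cannot be told apart.

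**Figure D3:**
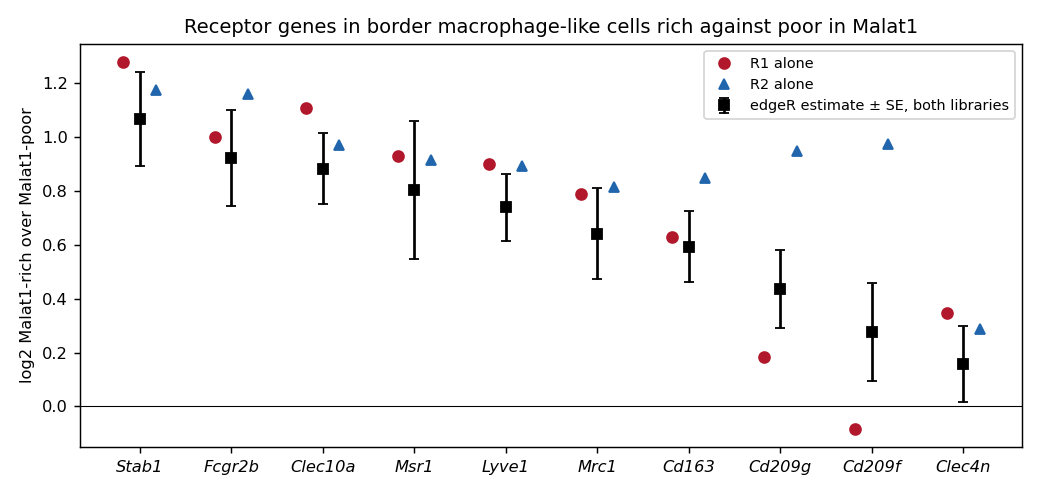
Difference of each member between Malat1-rich and Malat1-poor border macrophage-like cells, on the log2 scale, as the edgeR estimate with its SE and, without TMM scaling, as the value of each library. The values of R1 and R2 lie close together for Stab1, Mrc1, Msr1 and Lyve1 and apart for Cd209f, at −0.08 and 0.97.

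The same class was split by MHC class II RNA, into cells with and without such a UMI. Of the 259 and 259 cells with this RNA, 135 and 151 had only 1 such UMI. In 26 and 19 cells it made up at least 0.5% of UMIs. This is a split by detection and not of high against low levels. No member of the 10 passed, with 0.095% of 10529 genes higher and 0.0855% lower, and 6 of the 10 genes higher were the MHC class II genes that made the split. The estimates ran from −0.17 for Lyve1 (edgeR adjusted p = 0.80) to 0.30 for Fcgr2b (edgeR adjusted p = 0.75), and no member had an unadjusted p under 0.05. The count was also 0 without the library block and in cells with at least 1% Malat1. A further run used only the 181 and 228 cells with the largest share of this RNA. It set them against the same 282 and 423 cells without it, and its count was also 0. That run is no contrast of extremes and largely repeats the main split. The libraries stood on opposite sides of 0 for 4 members: Lyve1 at −0.37 in R1 and 0.03 in R2, Cd209f at −0.20 and 0.41, Cd209g at −0.25 and 0.36, and Clec10a at −0.04 and 0.11. Cells with an MHC class II UMI were deeper, with medians of 2041 and 1670 UMIs, against 1217.5 and 1057 UMIs in cells without one, and 39.0% and 37.8% of them were Malat1-rich, against 16.3% and 15.8%.

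The spread from cell to cell was read in the Malat1-rich cells, since they could be thinned to 2000 UMIs each, with 127 cells of R1 and 143 of R2 kept and 20 and 22 shallower cells left out. Mrc1 was found in 100% of these cells in both libraries and Stab1 in 99.2% and 99.3%. Cd209f, in contrast, was found in 52.0% and 57.3% of cells, although its mean of 2.21 and 3.92 UMIs per cell would reach 89.1% and 98.0% of cells if all cells had the same level. Cd209g was found in 29.9% and 37.1% of cells, against 54.9% and 67.6% at an even level. For both lectins, many of these Malat1-rich cells had no UMI among the 2000 drawn while others had many.

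The tenth of cells with the most Cd209f held 45.9% and 49.8% of its UMIs, and the highest cell had 14 UMIs in R1 and 54 in R2. The ratio of variance to mean was 4.90 and 11.3 for Cd209f and 3.98 and 4.63 for Cd209g, where counting error alone gives a ratio of 1. It was 1.05 and 0.971 for Msr1, 1.54 and 1.26 for Fcgr2b and 1.76 and 1.85 for Cd163. Mrc1 and Stab1 had ratios of 2.73 and 2.46 and of 2.26 and 2.098. Where cells differ in level, this ratio also rises with the mean UMIs per cell, so it does not rank members of different level. These means ran from 0.22 for Msr1 to 8.73 for Mrc1, both in R2. Msr1 was found in 22.0% and 20.3% of cells, against 22.9% and 20.1% at an even level, and Fcgr2b in 89.8% and 84.6%, against 90.8% and 86.3%. The shares of both genes lay within 2 percentage points of those of an even level. Cd163 lay between, in 51.2% and 67.8% of cells against 65.5% and 81.2%, as did Lyve1, in 52.0% and 74.1% against 66.3% and 86.6%. Clec10a was found in 65.4% and 62.9% of cells, against 78.6% and 68.7%, and Clec4n in 40.2% and 54.5%, against 47.6% and 54.0%. A gap to the even level has little room to show at the low mean of Msr1. The same holds for Mrc1 and Stab1, which were found in nearly all cells.

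**Figure D4:**
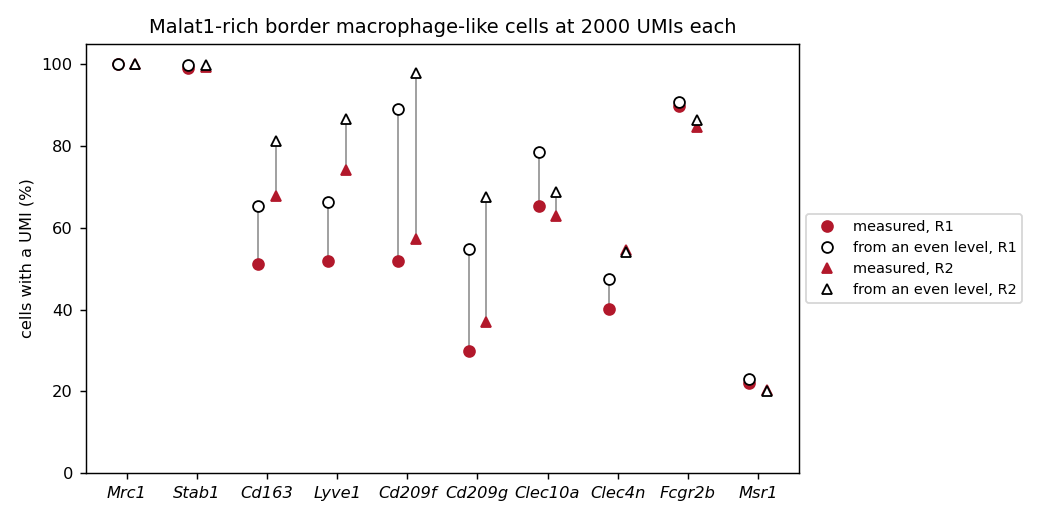
Share of Malat1-rich border macrophage-like cells with a UMI of each member at 2000 UMIs per cell, measured and as an even level of the same mean would give, in percent, for each library. Cd209f and Cd209g fall furthest below the even level, by 37.1 and 40.7 percentage points for Cd209f and 24.9 and 30.5 for Cd209g, while Msr1 and Fcgr2b lie within 2 points of it. At the low mean of Msr1 a gap has little room to show.

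These Malat1-rich cells were then compared by whether they had a Cd209f UMI, a comparison added after seeing the data. In R1 66 cells had one and 61 did not, and in R2 82 and 61. Cd209g was found in 53.0% of cells with Cd209f, against 4.92% of cells without it, in R1, and in 63.4% against 1.64% in R2. In counts these were 35 and 52 cells with Cd209f, against 3 and 1 cells without it. Exact 95% intervals were 40.3% to 65.4% and 52.0% to 73.8% with Cd209f, against 1.03% to 13.7% and 0.0415% to 8.80% without. The intervals of the groups did not overlap in either library.

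At 2000 UMIs per cell Cd209a was found in 40.9% and 32.9% of cells with Cd209f, against 3.28% and 9.84% of cells without it, and Cd209b in 24.2% and 18.3%, against 4.92% and 3.28%. In the edgeR test on UMIs summed per library, 7 of 2438 genes were higher in cells with Cd209f (0.287%) and 2 were lower (0.082%), with 1 residual degree of freedom. Of the genes that were higher, 1 was Cd209f itself, which made the split. Cd209g differed by 5.06 ± 0.31, Cd209b by 3.48 ± 0.42 and Cd209a by 2.43 ± 0.34 (SE, log2; edgeR adjusted p = 1.45e-17, 1.09e-07 and 3.30e-06). The remaining genes that were higher were the chemokine Ccl12 at 1.25 ± 0.25, the prostaglandin synthase Ptgds at 0.36 ± 0.06, which is among the 10 leading genes of the inner arachnoid fibroblast-like cluster in these libraries, and Insig1, a regulator of sterol synthesis. Insig1 was at 159 and 85.4 CPM in cells with Cd209f and had 1 UMI per library in cells without it, so no fold is given. Lower were Cd74, the invariant chain of MHC class II, at −1.76 ± 0.24 and the MHC class I gene H2-K1 at −0.61 ± 0.14. In the whole border macrophage-like class, MHC class II RNA reached 8.89% and 7.68% of the UMIs of a single cell. Whether a few cells carry the Cd74 difference was not tested. The libraries differed in size for Cd209a (4.14 in R1 and 1.13 in R2), Ccl12 (0.54 and 1.997), Cd74 (−2.03 and −1.02) and H2-K1 (−0.34 and −0.83), with the same direction in both. At 1000 UMIs per cell, with 140 and 159 cells of R1 and R2 and the split drawn again at that depth, 3 genes passed: Cd209f, which made the split, Cd209g at 2.81 ± 0.27 (edgeR adjusted p = 0.00306) and Cd74 at −2.21 ± 0.33 (edgeR adjusted p = 0.04997). Cd209a, Cd209b, Ccl12, Ptgds and H2-K1 lost their calls there, and Insig1 was not tested. At that depth Cd209g was found in 43.9% and 50.6% of cells with Cd209f, against 9.64% and 6.41% of cells without it. Cd209a was found in 21.1% and 13.6% of cells with Cd209f, against 12.05% and 8.97% of cells without it, and Cd209b in 15.8% and 12.3%, against 6.02% and 6.41%, with overlapping intervals for both genes.

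The other 8 members did not pass in the comparison at 2000 UMIs per cell. Mrc1 was at 4182 and 4494 CPM in cells with Cd209f, against 4320 and 4189 CPM in cells without it, and Stab1 at 3205 and 3665 CPM, against 3262 and 3418 CPM. Lyve1 had the lowest adjusted p of the 8, at a difference of 0.32 ± 0.14 (SE, log2; edgeR adjusted p = 0.852), with 614 and 1085 CPM in cells with Cd209f, against 467 and 893 CPM in cells without it. The Malat1-poor cells, at 500 UMIs each, showed Cd209g in 15.9% and 22.0% of cells with Cd209f, against 6.11% and 6.54% of cells without it. None of the Cd209f transcript windows was shared with Cd209a or Cd209b, while those shared with Cd209g are given above, and the part of shared reads in the joint detection of Cd209f and Cd209g was not tested.

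**Figure D5:**
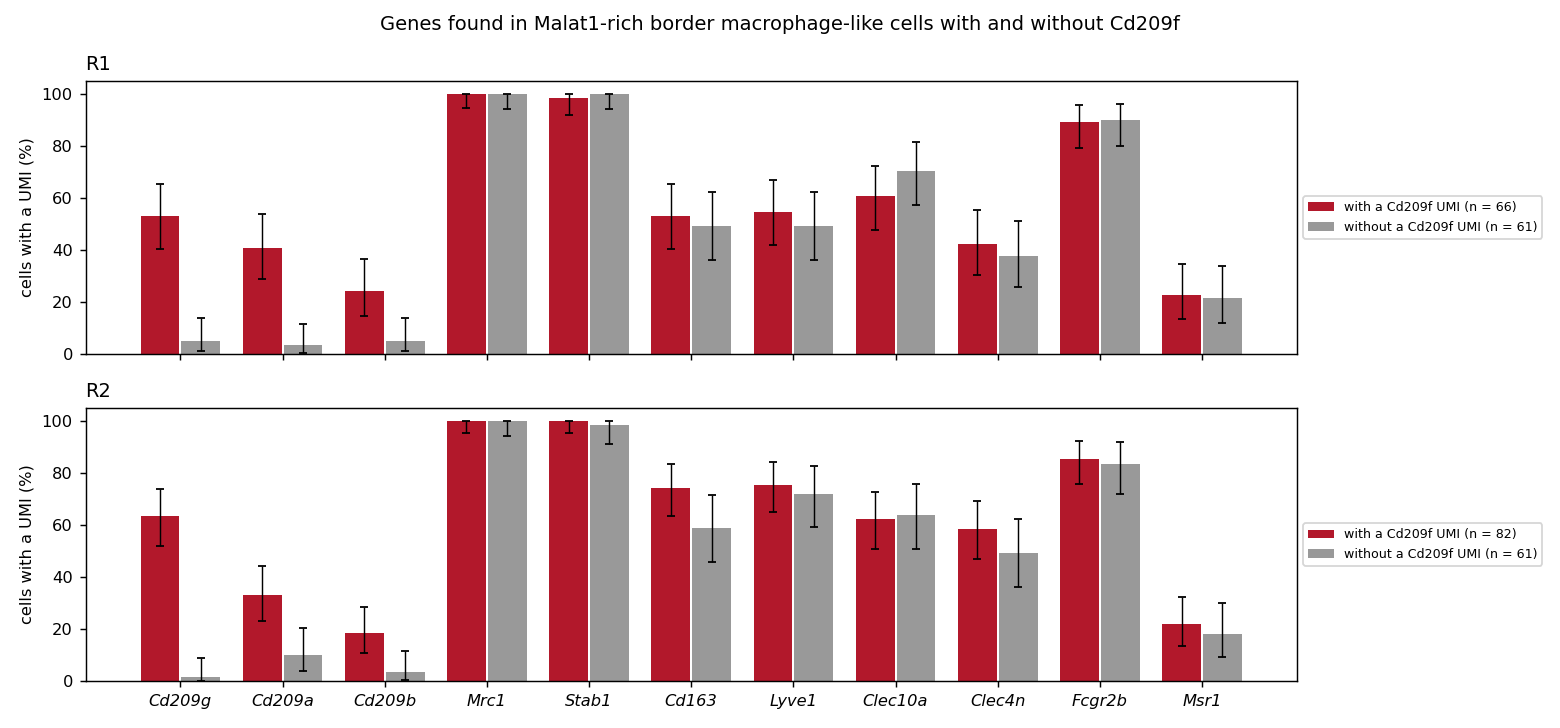
Share of Malat1-rich border macrophage-like cells with a UMI of each gene at 2000 UMIs per cell, in percent with exact 95% intervals, in cells with and without a Cd209f UMI, for each library. Cd209g, Cd209a and Cd209b stand at 18.3% or more in cells with Cd209f and at 9.84% or less in cells without it.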

How the data were processed

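The authors deposited raw UMI counts for each gene and barcode. The file headers name Cell Ranger 4.0.0 as the tool behind them, and the submitters' processing notes name the build mm10. These counts were used unchanged. The deposited feature and barcode lists give gene names and cell barcodes (unit: other, per the file headers). The 2 libraries held 14586462 and 12359040 UMIs in 7276 and 6743 barcodes. The members and gene lists were chosen with earlier results of these data known.

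Barcodes under 400 genes or over 10% mitochondrial UMIs were left out, and the kept cells held 7622094 and 6276148 UMIs. Scrublet called 4 and 1 doublets at an expected rate of 0.05 and so did not work here. Cells were clustered in scanpy 1.11.5 (2000 variable genes, 30 components, 15 neighbours, Leiden resolution 1) without the members, list genes, Pdgfra, sex-linked genes and reporters, and clusters were named from marker lists. Sums of the raw counts were formed for the 9 named classes and numbered fibroblast-like clusters that reached 50 cells in both libraries, 1 sum per library (the unnamed cluster C04, with 249 and 82 cells, was left out), and tested with edgeR 4.0.16 (quasi-likelihood, TMM, filterByExpr, library as an additive block, since every class comes from the same 2 libraries; 8 residual degrees of freedom, Benjamini-Hochberg adjustment over all genes, threshold 0.05). The fibroblast-like reference was the equal-weight mean of the fibroblast-like classes in that fit. Each SE of a fitted difference is the absolute log2 difference divided by the square root of the F value of its test. The planned cut at the library median of MHC class II RNA was not possible, since that median was 0 in both libraries, so cells above it were set against cells at it. Ratios with at most 3 counts in a class are pooled counts with exact intervals, and all intervals (95%, Clopper-Pearson for shares) and floors of 3 counts cover counting error only. Named list genes are up to 3 per list and direction with the largest fold change that pass, move the same way in both libraries and reach 50 CPM, and the 5 pattern genes have the highest Pearson correlation with the standardised member mean. On simulated counts for border macrophage-like against microglia-like cells over 8797 genes, 66 of 100 genes changed 2-fold and 98 of 100 changed 4-fold were recovered, with 10 false calls. The simulation gave all classes the same mean profile and a common dispersion, and it changed only well-counted genes. These figures therefore do not cover genes with few UMIs, such as most members in microglia-like cells. DESeq2 1.42.0 and other settings were tried as alternatives. Sequences are RefSeq's on GRCm38.p6, and shared windows come from the GENCODE transcripts of the same build. Other versions were R 4.3.3, limma 3.58.1, python 3.11.15, numpy 2.4.6, scipy 1.17.1, pandas 2.3.3, anndata 0.12.19 and igraph 0.11.9.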

Additional observations from a re-analysis of the deposited data

Results flagged for a closer look

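Receptor RNA was also found in barcodes that the filters left out, above the limit that a count of 0 allows. In barcodes over the mitochondrial limit the 10 members summed to 334.2 CPM in R1 and 324.3 CPM in R2. In barcodes that failed the gene limit alone they summed to 69.34 CPM in R1 and 148 CPM in R2. The kept cells held 1925 and 2809.8 CPM over all classes, so the level was higher among kept cells in both libraries. Mrc1 made up 559 of the 1512 member UMIs over the mitochondrial limit in R1 and 384 of 1083 in R2. These barcodes were not grouped into classes.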

How the results depend on the processing

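In border macrophage-like cells against microglia-like, endothelial-like, fibroblast-like and monocyte-like cells, all 10 members were called in every alternative run except with cells thinned to 500 UMIs, where 9 were called and Msr1 was not tested. Thinning gave fewer gene calls: 570 against microglia-like cells, where DESeq2 gave 1324 and the edgeR fit 2075, 2012 against endothelial-like, 2469 against fibroblast-like and 529 against monocyte-like cells, in place of 4540, 6043 and 2262. It gave 1588 in place of 4927 for microglia-like and 1511 in place of 4170 for endothelial-like against fibroblast-like cells. With at least 600 genes per cell, 4 members in place of 2 were called in microglia-like against fibroblast-like cells. The added ones were Mrc1 (adjusted p = 0.0321) and Cd209f (0.0337), and Cd209f passed also with RLE size factors (0.0495) and without shared barcodes (0.0479). With at most 5% mitochondrial UMIs, Lyve1 passed as lower in microglia-like cells (0.0107), and Lyve1 (0.00894) and Clec10a (0.0023) as lower in endothelial-like cells, against fibroblast-like cells. Of the fibroblast-like classes, only the dural border-like and the pial and perivascular ones reached 50 cells in both libraries in that run. Its fibroblast-like reference was therefore not that of the main fit. The cause of these changes in calls was not tested.

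Every class came from both libraries, so the libraries are the replicate block of the main fit. Without the block, 6 genes in place of 19 were called in the MHC class II split, and 6 among cells with at least 1% Malat1. Cd209g lost its call between Malat1-rich and Malat1-poor cells without the block (adjusted p = 0.1495), and no other member's call changed. At 1000 UMIs per cell, with more cells and the split drawn again, 3 genes in place of 9 were called in the Cd209f split. By share of unthinned cells, 9 of 10 members were highest in the border macrophage-like class by the mean over libraries, against 10 when thinned. Without either library the count by level and by thinned share was 10 and 10. Leaving out a library leaves 1 sample per class and no residual degrees of freedom, so such fits gave values and no test. The comparisons with microglia-like and monocyte-like cells gave no value among cells with at least 1% Malat1. No called member reversed. The microglia-like class rests on 189 and 101 cells.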
